A study of Mus musculus with 26 samples.

Results

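The genes examined were 10 that encode the proteins of plasma lipoproteins made by the liver and the enzymes that assemble or remodel these particles. They were the apolipoproteins Apoa1, Apoa2, Apoa4, Apoa5, Apob, Apoc2, Apoc3 and Apoe, the microsomal triglyceride transfer protein Mttp and hepatic lipase Lipc. They were taken by symbol from a table of read counts for 47643 mouse genes, and all 10 were found. Lipoproteins carry triglyceride and cholesterol through the blood. Hepatocytes assemble very low density lipoprotein (VLDL) around Apob while Mttp loads the protein with lipid. They also secrete Apoa1 and Apoa2, the main proteins of high density lipoprotein (HDL). Smaller exchangeable apolipoproteins control what happens to the particles in plasma: Apoc2 activates lipoprotein lipase, Apoc3 slows lipolysis and uptake, Apoa5 favours lipolysis, and Apoe binds receptors that clear remnants. In mice Apoa1, Apoc3, Apoa4 and Apoa5 lie side by side on chromosome 9, and Apoe, Apoc1, Apoc4 and Apoc2 lie side by side on chromosome 7.

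Messenger RNA was sequenced in 26 libraries of mouse liver that form 5 experiments, each with its own control. TCPOBOP, a compound that activates the constitutive androstane receptor of mice, was given to wild-type C57BL/6J mice of 8 weeks (2 libraries) and set against corn oil (2). The labels disagree on its time, giving 36 h in the sample titles and 6 h in the source names. Fxr-/- Shp-/- mice are without Nr1h4, which encodes the nuclear receptor for bile acids (Fxr), and without Nr0b2, which encodes the corepressor Shp. They were set against wild type, both C57BL/6J, 12 weeks old and fed ad libitum (3 each). C3H/HeN mice of 8 to 10 weeks were sampled 48 h after partial hepatectomy or as sham at 0 h (3 each), so the operated and control livers differ in time as well as in surgery. Hepatocytes came from wild-type C57BL/6J mice of 16 weeks fasted for 10 h, on a 60% high fat diet or chow (2 each). Mice with floxed Fxr and Shp alleles (fl/fl Fxr fl/fl Shp, C57BL/6J, 10 to 12 weeks, fasted for 8 to 10 h) received a cholic acid diet or chow (3 each); the labels name no Cre in these mice. All tissue other than the hepatocytes was whole liver. The labels do not say whether libraries of a group came from separate mice, so p-values measure the spread between these libraries, which may be in part technical.

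Reads counted to genes ranged from 13949059 to 70367874 per library, so a gene with 3 counts stood at 0.0426 to 0.215 CPM before scaling. CPM (read counts relative to library size) is otherwise scaled by TMM, a correction for library composition, within each comparison. Sums of cell type markers, the ranges of Apoc4 and Apoc1 and levels set side by side between experiments are scaled over all 26 libraries. A library went against its label in the TCPOBOP experiment: Cyp2b10, the standard target of the receptor, stood at 3786 and 10.3 CPM in corn oil and at 3465 and 3079 CPM with TCPOBOP. It is called the library labelled corn oil 1 below. Nr0b2 stood at 15.0, 28.2 and 13.7 CPM in wild type and 0.594, 1.16 and 1.68 CPM in the knockout. Nr1h4 stood at 153, 161 and 117 against 65.0, 55.7 and 58.5 CPM, a lower level of a row that counts the whole gene and cannot show which exons were deleted. Reads aligned to more than 1 place, which were not counted to genes, were 43.6% ± 0.48 of the reads in the table in wild type and 26.4% ± 0.74 in the knockout (SD, n = 3), a gap inside that comparison whose part in its results was not tested. In the floxed mice, chow 3 stood apart from the other chow libraries, with Cyp7a1, the rate-limiting enzyme of bile acid synthesis, at 109, 157 and 711 CPM in the 3 chow libraries. The fold changes of the 10 genes in those 2 experiments are given with and without the library in question.

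Sequence upstream of 3 of the genes is shown because they were lowered together in the knockout. The window of Apoa1, also lowered there, runs 50 bases into its annotated transcript and is not shown. That of Apoc2 is not shown because its row, also lowered, cannot be read as its transcript (below); it held AGGTCA and GTTAAT. RefSeq (GRCm38.p6) gave a start for 9 of the 10 genes, all but Apoc3. The 250 bases before it are printed 5′ to 3′ on the strand of the gene, and TATAAA is in capitals. They span chr12:7977427-7977676 (plus strand) for Apob, chr9:46268383-46268632 (plus strand) for Apoa5 and chr9:70952222-70952471 (minus strand) for Lipc. The GENCODE start lies 29 bases further upstream for Apob and 5 for Lipc.
Apob: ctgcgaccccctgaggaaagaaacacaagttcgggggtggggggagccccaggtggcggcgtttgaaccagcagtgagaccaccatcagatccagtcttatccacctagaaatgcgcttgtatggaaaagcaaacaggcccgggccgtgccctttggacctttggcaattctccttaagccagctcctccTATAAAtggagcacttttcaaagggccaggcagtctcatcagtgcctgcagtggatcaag
Apoa5: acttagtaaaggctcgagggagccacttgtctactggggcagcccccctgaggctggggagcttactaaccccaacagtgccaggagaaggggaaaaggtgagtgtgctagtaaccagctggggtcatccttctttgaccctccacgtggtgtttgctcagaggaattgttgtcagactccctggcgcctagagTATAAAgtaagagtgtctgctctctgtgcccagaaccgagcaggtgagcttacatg
Lipc: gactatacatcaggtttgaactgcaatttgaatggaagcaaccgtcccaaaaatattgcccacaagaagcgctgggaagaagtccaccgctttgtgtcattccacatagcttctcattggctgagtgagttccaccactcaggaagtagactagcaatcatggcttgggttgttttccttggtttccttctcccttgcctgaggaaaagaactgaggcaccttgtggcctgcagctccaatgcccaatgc
TATAAA began 60 bases before the start of Apob and 56 before that of Apoa5, and Lipc held none. The same letters on either strand were found in 12.37% of 32851 RefSeq windows of this length. The windows of these 3 genes held neither CAAAGGTCA nor CAAAGTCCA (0.43% and 0.38% of windows), which are sites of the kind bound by the nuclear receptor Hnf4a, nor AGGTCA (14.02%), which is contained in the first of them. They also held neither GTTAAT (6.43%) nor TGACGTCA (1.55%). All motifs were sought as exact strings on both strands, so close variants of them were not found. The Apob window holds tggacctttg, which is close to TGACCTTTG, the other strand of CAAAGGTCA. The search therefore does not show that the Apob window lacks a site of the kind bound by Hnf4a. An absent match says nothing of whether a factor binds.

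Apoc2 could not be measured with this table. Its row held 0 to 93 counts per library, 564 in all 26, although the gene is known as an abundant liver transcript. In GENCODE M21, 79.5% of its exon bases also lie, on the same strand, in exons of a readthrough gene, Gm44805, whose row held 0 counts in every library. Reads that fall in 2 genes on the same strand are set aside by the HTSeq counter that the submitters name. Values of Apoc2 are therefore values of this row and not of the transcript, and the counts over the 10 genes include it. Apoa4 shares 69.8% of its exon bases with genes on the opposite strand, Apoa5 20.8% and Mttp 9.5%, and whether counting used strand is not given in the sources used here. The counted antisense gene over Apoa4, Gm10680, held 727 counts in all 26 libraries together.

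The 10 genes took between 2.27% and 4.38% of all gene counts in a library. The share was 4.08% ± 0.17 in wild type and 4.07% ± 0.19 in the knockout, 3.89% ± 0.12 in sham and 3.19% ± 0.04 after hepatectomy, and 3.80% ± 0.58 in floxed chow mice and 2.99% ± 0.21 with cholic acid (SD, n = 3). It was 3.51% and 3.52% in the 2 libraries of chow hepatocytes and 4.38% and 4.04% with high fat diet. The library labelled corn oil 1 had the lowest share, 2.27%, against 3.51% in corn oil 2. The hepatectomy and cholic acid libraries all lay below their controls, the high fat libraries lay above theirs, and knockout and wild type overlapped.

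Per kilobase of exon, on a scale common to all 26 libraries, Apoa2, Apoe and Apoa1 stood highest in every group. In wild type they stood at 9064, 8303 and 7818 CPM per kilobase as group means, and the libraries of neighbours in that order overlapped. Apoc3 followed at 1084, then Apoa5 at 557, Apob at 468, Apoa4 at 181, Mttp at 72.5 and Lipc at 51.6, with no overlap between neighbours from Apoa1 down to Lipc. Apoa2 was the highest gene in 7 of the other 9 groups. After hepatectomy Apoa1 (6693) and Apoa2 (6064) overlapped at the top, and in high fat hepatocytes Apoe (10492) stood above Apoa2 (9743). Apoa4 had the widest range over the groups. Its group mean was 14.2 times as high in high fat hepatocytes (1612 CPM) as with corn oil (114 CPM), while the ratio of highest to lowest group was between 1.72 (Mttp) and 3.10 (Lipc) for the other 8 measurable genes.

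**Figure D1:**
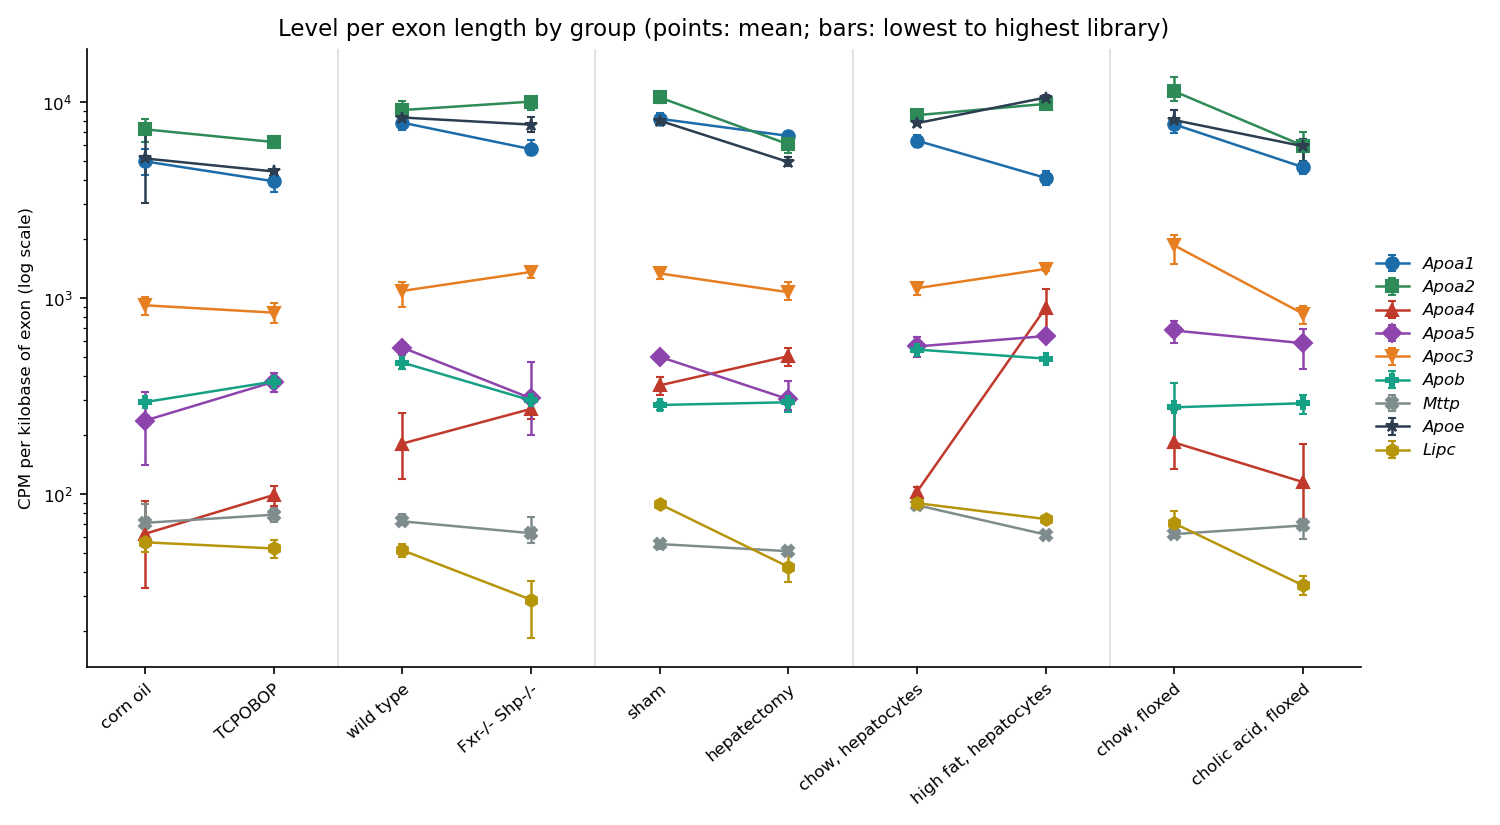
Level of 9 genes per kilobase of exon (CPM per kilobase, log axis) in the 10 groups, with points for group means, bars from the lowest to the highest library, and lines joining each control to its treated group. Apoa2, Apoe and Apoa1 form the upper band in every group, and Apoa4 climbs from 102 to 888 CPM per kilobase between chow and high fat hepatocytes.

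Changes were tested within each experiment with edgeR's quasi-likelihood test over all genes that passed a filter on low counts, and a gene is called raised or lowered at a Benjamini-Hochberg adjusted p under 0.05. All 10 genes passed the filter in every experiment. Fold changes are on the log2 scale, treated over control. No comparison shares a control with another. Lipc was lowered in 4 comparisons, Apoa1 in 3, and Apoa5 and Apoc3 in 2 each. Apoa2, Apob, Apoe and Mttp were each lowered in 1, as was the unusable row of Apoc2. Apoa4 was raised in 2, and Apoe in 1. The plot of fold changes shows the direction of each gene by experiment.

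**Figure D2:**
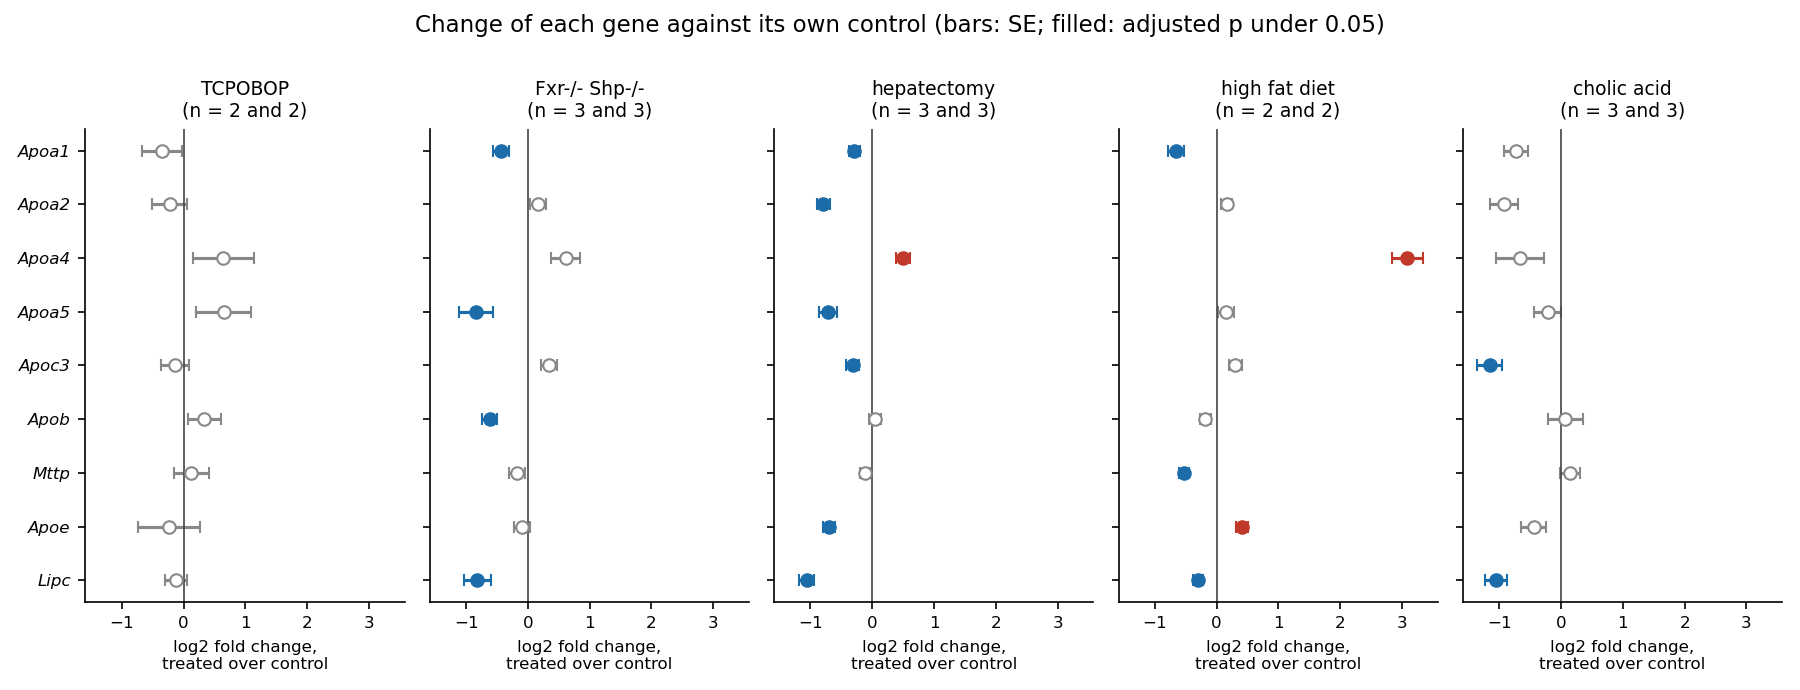
Log2 fold change of 9 genes over their own control in the 5 comparisons, with SE as bars, and filled points for genes raised (red) or lowered (blue) at an adjusted p under 0.05. Lipc lies at or left of -0.30 in the 4 comparisons where it was called, and Apoa4 with high fat diet (3.09) is the point farthest from 0.

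The knockout lowered 5 of the 10 genes and raised none, where 40.4% of 13473 genes tested were called, 21% raised and 19.4% lowered. Those lowered were Apoa1, Apoa5, Apob and Lipc, with the row of Apoc2 counted as well, which does not measure its transcript. The median log2 fold change of the 10, that row included, was -0.30, against -0.01 for all genes. The libraries of the groups did not overlap for 6 of the 10, and for 53.4% of all genes. The count of called genes among the 10 was 2 without knockout 1, 2 without knockout 2, 1 without wild type 1, 3 without wild type 2, 7 without knockout 3 and 4 without wild type 3. Over all genes these fits called between 3969 and 6024, against 5441. Scaling by library size alone moved the median of all genes to 0.19 and turned the called genes from 51.9% to 76.4% raised. Under it the 10 genes went to 3 raised (Apoa2, Apoa4 and Apoc3) and 2 lowered (Apob and the row of Apoc2).

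Hepatectomy lowered 6 genes and raised 1, where 30.7% of 13753 genes were called, 16.4% raised and 14.3% lowered. Lowered were Apoa1, Apoa2, Apoa5, Apoc3, Apoe and Lipc, and raised was Apoa4. The median of the 10 was -0.30, against 0.01 for all genes, and the groups did not overlap for 7 of them and for 47% of all genes. The count was 4 without sham 2 and 5 to 7 when one of the other libraries was left out, where 2554 and 2575 to 4217 of all genes were called, against 4225. One fit of all 26 libraries called 3391 of 14921 genes and 3 of the 10, and lost Apoa1, Apoa4, Apoa5 and Apoc3 (adjusted p 0.186, 0.354, 0.0707 and 0.135). Library size alone moved the median of all genes to 0.20 and turned the called genes from 53.4% to 78.0% raised.

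High fat diet raised Apoa4 and Apoe and lowered Apoa1, Mttp and Lipc, where 24% of 13892 genes were called, 12.9% raised and 11.1% lowered. The median of the 10 was -0.02, against 0.01 for all genes. The groups, of 2 libraries each, did not overlap for 9 of the 10, and for 68.2% of all genes. The count of 5 became 2 without high fat 1, 2 without high fat 2, 3 without chow 1 and 3 without chow 2. Over all genes the calls fell as well, from 3333 to 1141, 1793, 2372 and 2644 in these fits. One fit of all 26 libraries called 1735 genes and 2 of the 10, and lost Apoe, Mttp and Lipc (adjusted p 0.305, 0.0844 and 0.493). Library size alone moved the median of all genes to 0.14 and turned the called genes from 53.7% to 74.2% raised.

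Cholic acid lowered Apoc3 and Lipc and raised none of the 10, where 4.77% of 12577 genes were called, 2.27% raised and 2.5% lowered. The median of the 10 was -0.70, against 0.01 for all genes. The groups did not overlap for 5 of them: Apoa1, Apoa2, Apoc3, Apoe and Lipc were each lower in all 3 cholic acid libraries than in any chow library. Of all genes 31.2% did not overlap. Without chow 3 the fit called 4 of the 10, Apoa1, Apoa2, Apoc3 and Lipc, all lowered, where 10.4% of 12958 genes were called. The count was 1 without cholic acid 1, 0 without cholic acid 2, 0 without cholic acid 3, and 0 without chow 2, where between 189 and 271 of all genes were called, against 600. Without chow 3 the 10 fold changes were -0.80 (Apoa1), -0.98 (Apoa2), -0.28 (Apoa4), -0.31 (Apoa5), -0.18 (Apob), -1.41 (the row of Apoc2), -1.06 (Apoc3), -0.50 (Apoe), 0.16 (Mttp) and -1.14 (Lipc). DESeq2's Wald test also called 4, and 1445 of all genes. Library size alone moved the median of all genes to 0.19 and turned the called genes from 47.5% to 69.6% raised.

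TCPOBOP changed none of the 10 (edgeR), and 0 of 12785 genes passed the threshold at all (0%), with 751 at an unadjusted p under 0.05. None of the 10 had an unadjusted p under 0.05. DESeq2's Wald test also called 0 of the 10, and 109 genes in all. The groups did not overlap for 2 of the 10, and for 35.4% of all genes. The library labelled corn oil 1 was one of the 2 controls. Without it, 9.35% of 13190 genes were called, and Apoa4 was the single one of the 10 (log2 fold change 1.56, adjusted p 0.00113). The other fold changes without it were -0.55 (Apoa1), -0.40 (Apoa2), 0.16 (Apoa5), 0.32 (Apob), 1.16 (the row of Apoc2), -0.28 (Apoc3), -0.72 (Apoe), 0.53 (Mttp) and -0.25 (Lipc). That fit has 1 control library, which is assumed to vary as the TCPOBOP libraries do. Without corn oil 2 instead, 413 of 13139 genes were called, and Apoa5 was the single one of the 10 (log2 fold change 1.40, adjusted p 0.00868).

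**Figure D3:**
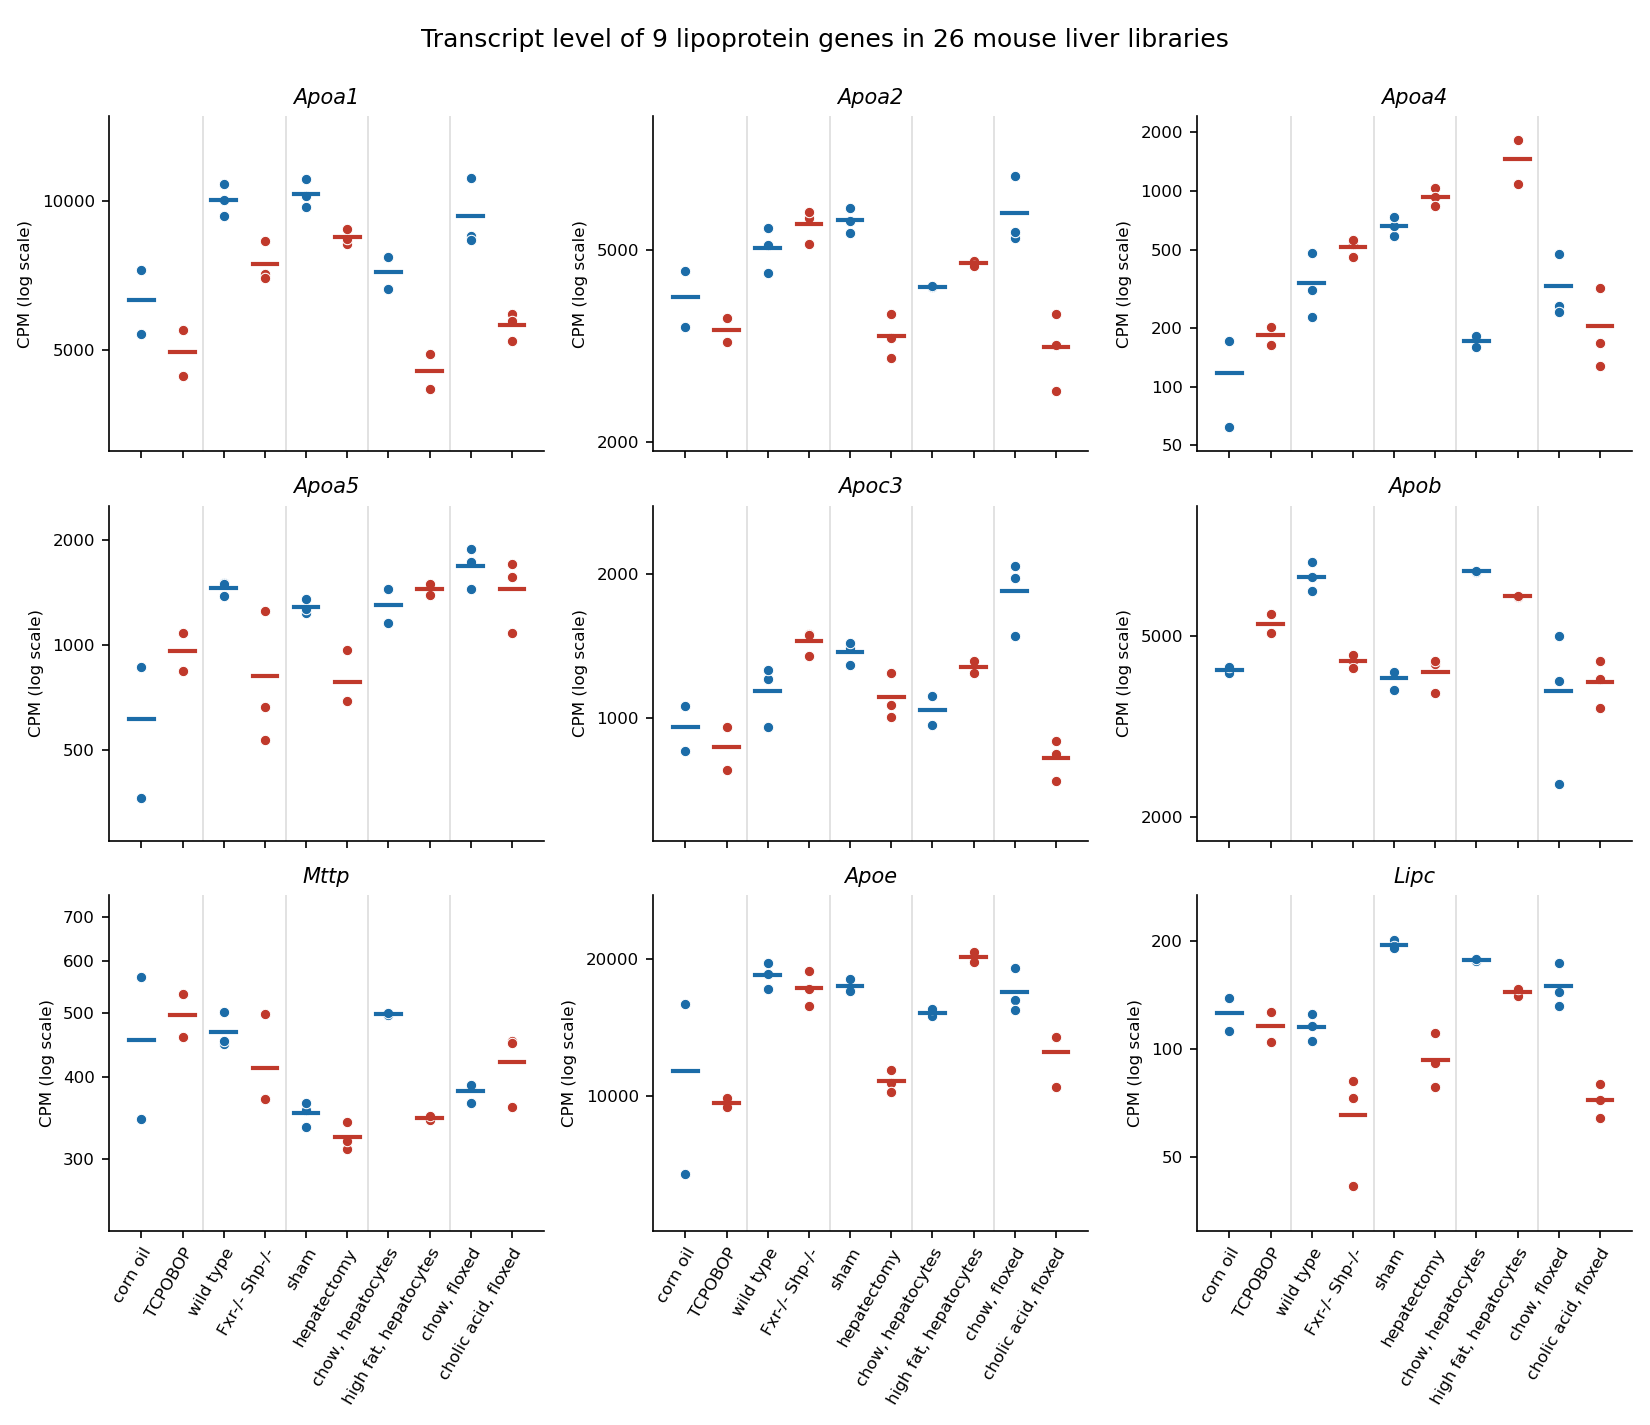
CPM (log axis) of 9 genes in each of the 26 libraries by group, controls in blue and treated groups in red, with a short line at each group mean and CPM scaled within each experiment. The high fat libraries of Apoa4 (1085 and 1811 CPM) stand above every other library of that gene, and the 2 corn oil libraries of Apoe (6720 and 15890 CPM) lie far apart.

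Apoa1, the main protein of HDL and the activator of the cholesterol-esterifying enzyme Lcat, stood at 10028, 9315 and 10776 CPM in wild type and 7125, 6989 and 8273 CPM in the knockout (log2 fold change -0.43 ± 0.13 (SE), adjusted p 0.0279). Every knockout library lay below every wild-type library. It stood at 9697, 10215 and 11065 CPM in sham and 8168, 8386 and 8785 CPM after hepatectomy (log2 fold change -0.29 ± 0.09 (SE), adjusted p 0.0481). In chow hepatocytes the values were 7702 and 6649 CPM and with high fat diet 4906 and 4169.9 CPM (log2 fold change -0.66 ± 0.13 (SE), adjusted p 0.0203). No library overlapped in either of those comparisons. With cholic acid it stood at 5919.5, 5735 and 5221 CPM against 8469.5, 11098 and 8344 CPM on chow, a larger difference that missed the threshold (log2 fold change -0.73 ± 0.20 (SE), adjusted p 0.0772) with all 6 libraries and passed it without chow 3 (-0.80, 0.0412). With corn oil the values were 5377 and 7261 CPM and with TCPOBOP 5486 and 4438 CPM.

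The calls of Apoa1 were lost without single libraries. In the knockout the adjusted p rose to 0.107, 0.107, 0.075 and 0.0924 without knockout 1, knockout 2, wild type 1 or wild type 3. After hepatectomy it rose to 0.127, 0.0721, 0.0662, 0.134 and 0.161 without hepatectomy 1, hepatectomy 2, sham 1, sham 2 or sham 3. With high fat diet it was 0.0548 without high fat 2. The direction was the same in each of these fits. Library size alone gave -0.23 in the knockout and -0.11 after hepatectomy, neither past the threshold.

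Apoa2, the second protein of HDL, stood at 5748, 5422 and 6115 CPM in sham and 3292, 2994 and 3690.4 CPM after hepatectomy (log2 fold change -0.79 ± 0.11 (SE), adjusted p 0.00117), with no overlap. With cholic acid it stood at 3187, 3697 and 2554 CPM against 5308, 7112 and 5459 CPM on chow (log2 fold change -0.92 ± 0.22 (SE), adjusted p 0.0533). These groups did not overlap either, and the fit without chow 3 passed the threshold (-0.98, 0.0334), as did DESeq2's Wald test (-0.93, 0.000696). In the knockout it stood at 5159, 5837 and 5996 CPM against 5133, 4478 and 5555 CPM in wild type (log2 fold change 0.16 ± 0.13 (SE), adjusted p 0.343), and the groups overlapped. With library size alone it was called raised (0.37, 0.0281). In high fat hepatocytes it stood at 4759 and 4646 CPM against 4187 and 4215 CPM (log2 fold change 0.16 ± 0.09 (SE), adjusted p 0.224).

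The ratio of Apoa4 to Apoa1, adjacent but for Apoc3, shows how far the 2 moved apart, computed per kilobase in each library. It was 1.60% and 1.64% in chow hepatocytes and 25.1% and 17.7% with high fat diet. In sham it lay between 4.13% and 4.54% and after hepatectomy between 6.49% and 8.62%. Wild type gave 1.65% to 3.04% and the knockout 3.79% to 5.47%. In these 3 experiments every treated library lay above every control library. With cholic acid the ratio overlapped, at 1.46%, 1.99% and 4.18% against 2.09%, 1.47% and 3.91% on chow. It was 2.18% and 0.58% in corn oil and 2.52% and 2.51% with TCPOBOP. Ratios of Apoc3 and Apoa2 to Apoa1 also rose with high fat diet. Apoc3 to Apoa1 was 15.3% and 20.4% on chow and 30.9% and 38.4% with high fat diet. Apoa2 to Apoa1 was 125% and 146%, then 223% and 256%. Both were also higher in every knockout library than in any wild-type library. After hepatectomy Apoc3 to Apoa1 overlapped, and Apoa2 to Apoa1 fell from 122% to 136% in sham to 82.2% to 96.7%. Apoa4 to Apob was computed and is not given here.

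Apoa4, an apolipoprotein of triglyceride-rich particles and HDL that is made in intestine and liver, had the largest change of the 10 genes. It stood at 181 and 159.9 CPM in chow hepatocytes and 1811 and 1085 CPM with high fat diet, 8.49-fold higher (log2 fold change 3.09 ± 0.26 (SE), adjusted p 0.00306). It ranked 171 by size of change among the 13892 genes tested there, and it was called whichever 1 of the 4 libraries was left out (adjusted p 0.000228 to 0.00162). After hepatectomy it stood at 1034, 929 and 837 CPM against 588, 662 and 738 CPM in sham, 1.41-fold higher (log2 fold change 0.49 ± 0.12 (SE), adjusted p 0.0143), and the call was lost without sham 2 (adjusted p 0.059). Neither pair of groups overlapped.

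In the knockout Apoa4 stood at 536, 562 and 460.0 CPM against 312, 226 and 482 CPM in wild type (log2 fold change 0.61 ± 0.24 (SE), adjusted p 0.0697). Wild type 3 overlapped with the knockout, and without it the gene passed the threshold (0.95, 0.0058). It also passed without knockout 3 (0.70, 0.0484), with library size alone (0.83, 0.0192) and by DESeq2 (0.62, 0.0211). With cholic acid it stood at 127, 168 and 320.3 CPM against 259.5, 239 and 479 CPM (log2 fold change -0.67 ± 0.39 (SE), adjusted p 0.342), and the groups overlapped. Without chow 3 the value was -0.28 (adjusted p 0.618). In corn oil it stood at 172 and 62.2 CPM and with TCPOBOP at 203 and 164 CPM. The library labelled corn oil 1 lay between the TCPOBOP libraries, and corn oil 2 lay below all 3.

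Markers of intestinal epithelium were read beside Apoa4, since that tissue also makes it. Of 6 such genes, Cdx1 had 0 counts in all 26 libraries, Cdx2 had 1 count in 1 sham library and 0 elsewhere, and Muc2 had at most 6 counts. The summed level of the 6 was 76.0 and 78.2 CPM in chow hepatocytes and 149 and 149.8 CPM with high fat diet, where Fabp2, a fatty acid binding protein, rose (log2 fold change 1.22, adjusted p 0.00338). Of the 6, 2 passed the filter on low counts there, and Fabp2 was the 1 raised. The rise of the sum is therefore not a rise of 6 markers.

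Apoa5, which favours hydrolysis of plasma triglyceride, stood at 1506, 1379 and 1498 CPM in wild type and 664, 533 and 1254 CPM in the knockout (log2 fold change -0.84 ± 0.28 (SE), adjusted p 0.0382). Knockout 3 stood near wild type, at 1254 CPM, and the other 2 knockout libraries were below 700 (664 and 533). The call was lost without knockout 1, knockout 2, wild type 1, wild type 2 or wild type 3 (adjusted p 0.113, 0.0927, 0.0923, 0.0749 and 0.0883), with library size alone (-0.65, 0.0661) and by DESeq2 (0.0773). Without knockout 3 it was -1.28 (adjusted p 4.99e-05). After hepatectomy it stood at 967, 692 and 689 CPM against 1237, 1268 and 1359.5 CPM in sham (log2 fold change -0.72 ± 0.14 (SE), adjusted p 0.00663), with no overlap. In high fat hepatocytes (1391 and 1501 CPM against 1158 and 1451 CPM) and with cholic acid (1707, 1569 and 1082 CPM against 1882, 1727 and 1453 CPM) the groups overlapped.

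Apoc3, which slows lipolysis and the uptake of remnants, stood at 843, 898 and 738 CPM with cholic acid against 1483, 1961 and 2084 CPM on chow, 2.23-fold lower (log2 fold change -1.16 ± 0.20 (SE), adjusted p 0.0162). The lowest chow library lay well above the highest cholic acid library. The call was lost without cholic acid 1, 2 or 3 or chow 2 (adjusted p 0.0696, 0.0541, 0.0754 and 0.0755), with a log2 fold change between -1.22 and -1.08 in these fits. After hepatectomy it stood at 1064, 1008 and 1246 CPM against 1403, 1294 and 1437 CPM in sham (log2 fold change -0.32 ± 0.10 (SE), adjusted p 0.0484), and that call was lost when any library other than hepatectomy 3 was left out (adjusted p 0.118, 0.121, 0.112, 0.0869 and 0.154 without hepatectomy 1 and 2 and sham 1, 2 and 3) and with library size alone (-0.14). In the knockout all 3 libraries (1350.2, 1499 and 1494 CPM) lay above all wild-type libraries (1208, 959 and 1258 CPM), but the test missed the threshold (log2 fold change 0.34 ± 0.13 (SE), adjusted p 0.0606). DESeq2's Wald test gave 0.35 and 0.0239, and library size alone 0.55 and 0.00595. In high fat hepatocytes it stood at 1244 and 1314 CPM against 968 and 1112 CPM (log2 fold change 0.30 ± 0.10 (SE), adjusted p 0.0869), and library size alone passed the threshold (0.43, 0.0327).

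Apob, the structural protein of VLDL and its remnants, was lowered in the knockout, at 4402, 4267 and 4543 CPM against 6282, 6751 and 7279.6 CPM in wild type, 1.54-fold lower (log2 fold change -0.62 ± 0.12 (SE), adjusted p 0.0033). This call held whichever 1 of the 6 libraries was left out (adjusted p 0.00148 to 0.0202) and with library size alone (-0.42, 0.00948). It stood at 4354, 4419.7 and 3740.5 CPM after hepatectomy and 4133, 3811 and 4177 CPM in sham (log2 fold change 0.05 ± 0.10 (SE), adjusted p 0.76). In hepatocytes it stood at 6118 and 6146 CPM with high fat diet and 6924 and 6983 CPM on chow (log2 fold change -0.18 ± 0.09 (SE), adjusted p 0.188). The floxed chow libraries spread widely, at 5020.4, 3975 and 2356 CPM, against 3477, 4019 and 4407 CPM with cholic acid (log2 fold change 0.07 ± 0.28 (SE), adjusted p 0.911), and without chow 3 the value was -0.18. With TCPOBOP (5592 and 5073 CPM) both libraries lay above corn oil (4147 and 4288 CPM), with an adjusted p of 0.943.

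Mttp, which transfers lipid onto Apob in the endoplasmic reticulum, was lowered in high fat hepatocytes, at 344 and 348 CPM against 497 and 499.6 CPM on chow (log2 fold change -0.53 ± 0.08 (SE), adjusted p 0.0113). The call was lost without high fat 1 (adjusted p 0.0508). It stood at 370.1, 370.1 and 497 CPM in the knockout and 449, 452 and 501 CPM in wild type (log2 fold change -0.18 ± 0.13 (SE), adjusted p 0.312), with knockout 3 among the wild-type values. Without that library the gene passed the threshold (-0.33, 0.0184), and with library size alone the value was 0.02. After hepatectomy (311, 319 and 341 CPM against 355, 365 and 335 CPM) and with cholic acid (359, 453 and 450.3 CPM against 388, 364 and 389 CPM) the groups overlapped. In corn oil it stood at 566 and 344 CPM, above and below the TCPOBOP libraries (534 and 459.9 CPM).

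Apoe, the ligand through which receptors clear remnant particles, stood at 17338, 16993 and 18069 CPM in sham and 10658, 10210.2 and 11394 CPM after hepatectomy, 1.62-fold lower (log2 fold change -0.70 ± 0.09 (SE), adjusted p 0.00112), with no overlap. In hepatocytes it stood at 20688 and 19635 CPM with high fat diet and 14977 and 15481 CPM on chow, 1.32-fold higher (log2 fold change 0.40 ± 0.10 (SE), adjusted p 0.0349). That call was lost whichever 1 of the 4 libraries was left out: adjusted p was 0.106, 0.0643, 0.106 and 0.0803 without high fat 1, high fat 2, chow 1 and chow 2. In the knockout it stood at 15726, 17136 and 18799 CPM against 19586, 17207 and 18551 CPM in wild type (log2 fold change -0.10 ± 0.13 (SE), adjusted p 0.58; 0.10 with library size alone), and the groups overlapped. With cholic acid it stood at 13432, 13440.1 and 10465 CPM against 16210.0, 19122 and 15450.2 CPM on chow (log2 fold change -0.44 ± 0.21 (SE), adjusted p 0.246), without overlap. The 2 corn oil libraries (6720.1 and 15890.4 CPM) lay below and above both TCPOBOP libraries (9427 and 9871 CPM).

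Macrophages and stellate cells also make Apoe, and markers of both moved with it in hepatocytes. Of 8 macrophage and Kupffer cell markers, 5 were raised by high fat diet and their sum stood at 42.0 and 43.9 CPM on chow and at 73.3 and 81.5 CPM with high fat diet. Of 6 stellate cell markers 5 were raised (10.1 and 14.4 CPM, then 31.4 and 36.3 CPM), and of 6 endothelial markers all 6 (42.2 and 43.7 CPM, then 104 and 107 CPM), where 12.9% of all genes were raised. None of these markers was at 0 in a hepatocyte library. Their part in the rise of Apoe was not tested. In bulk samples such as these, fewer cells of a type and less RNA per cell cannot be told apart. Hepatocyte markers, among them albumin, summed to 42575 to 121035 CPM in the 26 libraries, none of the 6 at 0, and 0 of the 6 were called in hepatocytes with high fat diet. In the knockout 5 of 6 cholangiocyte and 5 of 6 stellate markers were raised and 1 of 6 hepatocyte markers was lowered, where 21% and 19.4% of all genes were. Of 8 macrophage and Kupffer cell markers 2 were raised and 1 lowered there, and of 6 endothelial markers 2 were raised. Leukocyte markers summed to 5.24 to 8.59 CPM in wild type and 14.7 to 31.7 CPM in the knockout, and intestinal markers to 48.2 to 67.0 and 15.0 to 23.0 CPM. The part of these markers in the values of the knockout was not tested. After hepatectomy 3 of 6 hepatocyte markers were lowered and 1 raised, where 14.3% and 16.4% of all genes were. Their sum was 113511 to 121035 CPM in sham and 87982 to 100003 CPM after hepatectomy, without overlap. In corn oil it was 42575 and 89907 CPM, and with TCPOBOP 51260 and 48401 CPM. The part of this in the values of the 10 genes was not tested. With cholic acid endothelial markers summed to 116 to 167 CPM against 93.7 to 115 CPM on chow, with 0 of 6 called. Macrophage and Kupffer cell markers summed to 228 to 385 CPM against 92.4 to 267 CPM, with overlap. Of these 8, 1 was raised, where 2.27% of all genes were. The part of both sets in the values there was not tested.

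Lipc, the hepatic lipase that hydrolyses triglyceride and phospholipid of remnants and HDL, stood at 125, 116 and 106 CPM in wild type and 73.2, 81.6 and 41.5 CPM in the knockout (log2 fold change -0.82 ± 0.22 (SE), adjusted p 0.0161). After hepatectomy it stood at 111, 78.2 and 91.1 CPM against 201, 193 and 191 CPM in sham, 2.09-fold lower (log2 fold change -1.06 ± 0.12 (SE), adjusted p 0.000602). With cholic acid it stood at 80.0, 64.4 and 72.2 CPM against 144, 173 and 131 CPM on chow, 2.07-fold lower (log2 fold change -1.05 ± 0.17 (SE), adjusted p 0.015). In hepatocytes it stood at 141 and 147 CPM with high fat diet and 176 and 178 CPM on chow, 1.23-fold lower (log2 fold change -0.30 ± 0.08 (SE), adjusted p 0.0445). Treated and control libraries overlapped in none of these 4 comparisons. With corn oil (112 and 139 CPM) and TCPOBOP (127 and 105 CPM) they did, with an adjusted p of 0.975.

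The hepatectomy value of Lipc was called whichever 1 library was left out. In the knockout the call was lost without wild type 1 (adjusted p 0.0536) and with library size alone (-0.61, 0.0678). With cholic acid it was lost without cholic acid 2, cholic acid 3 or chow 2 (adjusted p 0.0716, 0.0691 and 0.069). With high fat diet it was lost whichever 1 library was left out (adjusted p 0.196, 0.105, 0.102 and 0.108 without high fat 1, high fat 2, chow 1 and chow 2) and with library size alone (-0.17, 0.162). The direction was lower in every one of these fits.

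The row of Apoc2 held 19, 13 and 11 counts in wild type and 4, 6 and 11 in the knockout (log2 fold change -1.40 ± 0.42 (SE), adjusted p 0.0262). It passed the filter on low counts through the wild-type libraries, where it was higher, so the call carries no weight. The call was lost by DESeq2 (adjusted p 0.0617) and without knockout 1, knockout 2, wild type 1 or wild type 2 (0.0895, 0.079, 0.105 and 0.0618). It held 24, 20 and 0 counts in floxed chow and 9, 23 and 2 with cholic acid, and in no comparison other than the knockout was the row called.

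Genes of the chromosome 9 cluster were called in opposite directions in 2 comparisons. On chromosome 9 (GRCm38, GENCODE M21) Apoa1, Apoc3, Apoa4 and Apoa5 lie within 43.3 kb, at chr9:46228580-46271919, with Apoc3 on the minus strand and the other three on the plus strand. High fat diet raised Apoa4 and lowered Apoa1, with log2 fold changes of -0.66, 0.30, 3.09 and 0.15 along the cluster. Hepatectomy raised Apoa4 and lowered the other 3 (-0.29, -0.32, 0.49 and -0.72). The knockout lowered the outer genes Apoa1 and Apoa5 (-0.43 and -0.84), while Apoc3 and Apoa4 between them had values of 0.34 and 0.61 that missed the threshold. With cholic acid all 4 values were negative (-0.73, -1.16, -0.67 and -0.22) and Apoc3 alone passed. The value of Apoa4 was -0.28 without chow 3. Of the genes next to the cluster, Zpr1 fell after hepatectomy (log2 fold change -1.18 ± 0.11 (SE), adjusted p 0.000183) and Sik3 fell with high fat diet (log2 fold change -0.62 ± 0.07 (SE), adjusted p 0.00657).

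On chromosome 7 Apoc2, Apoc4, Apoc1 and Apoe lie within 27.6 kb on the minus strand, at chr7:19671579-19699188. With cholic acid Apoc4 and Apoc1, exchangeable apolipoproteins, were lowered (-1.08 and -0.91, adjusted p 0.0391 and 0.0442), and Apoe had -0.44, which missed the threshold. The calls of Apoc4 and Apoc1 lay near the threshold, and whether they hold with single libraries left out was not tested. Hepatectomy lowered Apoe and Apoc1 (-0.70 and -0.52), and Apoc4 had -0.26 (adjusted p 0.142). The knockout lowered Apoc4 (-0.60, adjusted p 0.00781) and not Apoc1 (-0.32, adjusted p 0.0522). High fat diet raised Apoe, and Apoc1 had a value close to it (0.40 and 0.39) that missed the threshold (adjusted p 0.0512). The level of Apoc4 differed between experiments, at 342 to 647 CPM in the 6 wild-type and knockout libraries and 80.9 to 273 CPM in the other 20. Those 6 libraries also held the reads aligned to more than 1 place at 26.4% to 43.6% as group means, above the 17.1% to 24.3% of the other groups; the part of this in the level of Apoc4 was not tested. Apoc1 overlapped between the same sets (2605 to 3682 and 1722 to 4437 CPM).

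**Figure D4:**
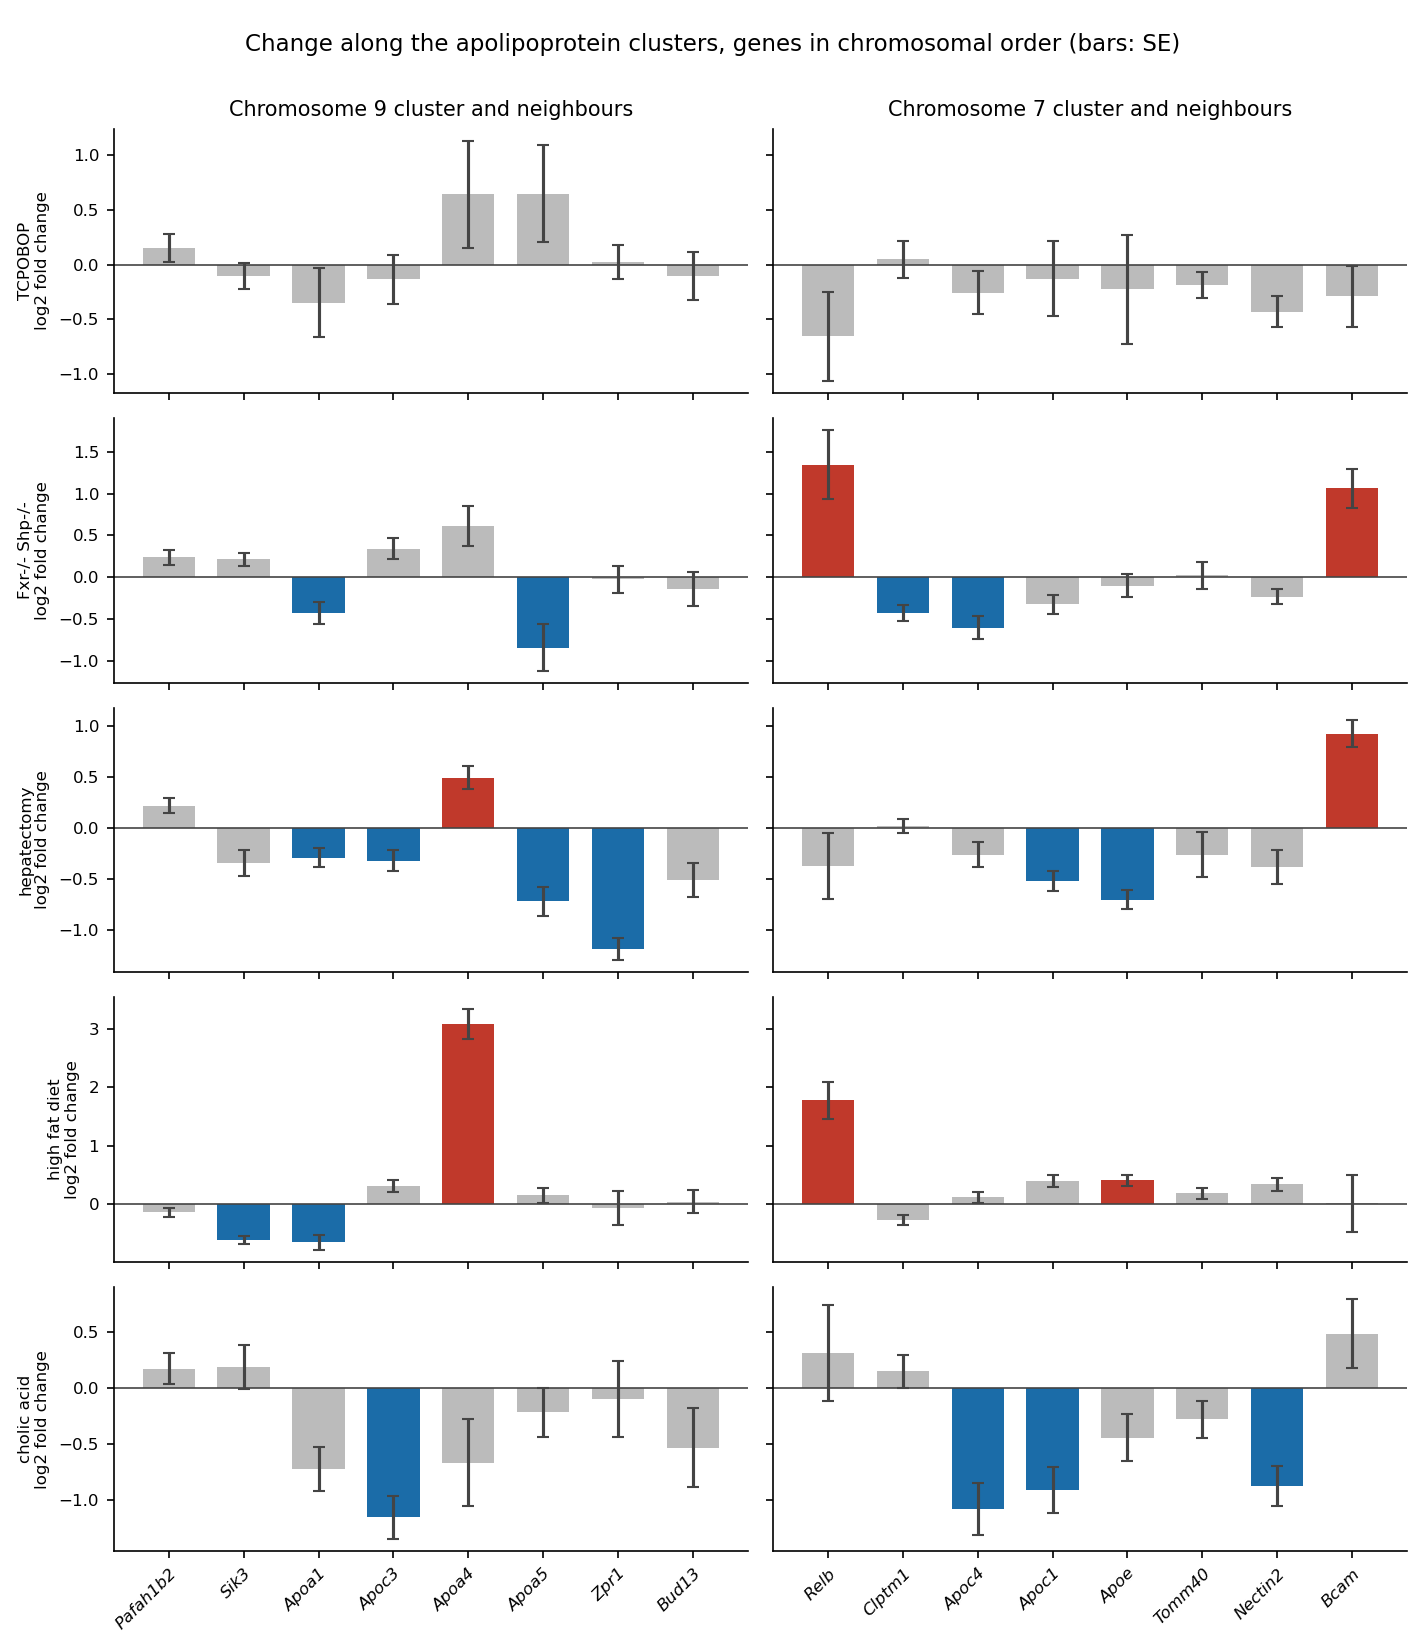
Log2 fold change with SE of the genes of both clusters and their neighbours, in chromosomal order, for the 5 comparisons (raised in red, lowered in blue, not called in grey), with the row of Apoc2 left out and each row of plots on its own axis. With high fat diet the bar of Apoa4 (3.09) stands between those of Apoc3 (0.30) and Apoa5 (0.15), and with cholic acid Apoc4 and Apoc1 fall beside Apoe.

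Whether 2 treatments differed in their effect on a gene was tested directly for 6 pairs of experiments, leaving out TCPOBOP, again over all genes. The pairs differ in strain, age, feeding or tissue as well as in treatment. The effect on Apoa4 was larger with high fat diet than in the knockout (knockout minus high fat -2.47 ± 0.41 (SE), adjusted p 0.00267), than after hepatectomy (high fat minus hepatectomy 2.61 ± 0.27 (SE), adjusted p 0.000158) and than with cholic acid (high fat minus cholic acid 3.77 ± 0.60 (SE), adjusted p 0.00932). For Apoa4, the last was lost without chow hepatocytes 1 (adjusted p 0.0684) or chow hepatocytes 2 (0.0649). The share of all genes called was 16.1% for knockout minus high fat, 29.2% for high fat minus hepatectomy and 6.43% for high fat minus cholic acid, and of the 10 genes 1, 7 and 3 were called.

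The effect on Apoc3 was lower with cholic acid than in each of the 3 experiments it was tested against. The difference was 1.50 ± 0.24 (SE), adjusted p 0.0014 for knockout minus cholic acid, 0.84 ± 0.22 (SE), adjusted p 0.0236 for hepatectomy minus cholic acid and 1.47 ± 0.25 (SE), adjusted p 0.0123 for high fat minus cholic acid. The middle one was lost without hepatectomy 3, sham 2, sham 3, cholic acid 3 or chow 2 (adjusted p 0.0549, 0.0723, 0.0516, 0.0548 and 0.0511), and the last without high fat 1, high fat 2 or chow hepatocytes 1 (0.0582, 0.0658 and 0.0812). Of all genes 13.9% were called for knockout minus cholic acid and 13% for hepatectomy minus cholic acid, and of the 10 genes 2 and 1. Apoa2 also differed between the knockout and cholic acid (1.09 ± 0.26 (SE), adjusted p 0.0143).

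The effects of hepatectomy and the knockout differed for 5 of the 10 genes, the row of Apoc2 among them, where 31.5% of all genes were called. The effect on Apob was lower in the knockout than after hepatectomy (knockout minus hepatectomy -0.65 ± 0.15 (SE), adjusted p 0.0055). Apoa2 (0.97 ± 0.17 (SE), adjusted p 0.000982), Apoe (0.61 ± 0.16 (SE), adjusted p 0.0119) and Apoc3 (0.67 ± 0.17 (SE), adjusted p 0.00923) had the lower effect after hepatectomy. For Lipc no difference between the knockout, hepatectomy and cholic acid was detected: hepatectomy minus cholic acid was -0.01 ± 0.21 (SE), adjusted p 0.988, knockout minus hepatectomy 0.26 ± 0.27 (SE), adjusted p 0.508 and knockout minus cholic acid 0.24 ± 0.30 (SE), adjusted p 0.646. Its effect after hepatectomy was larger than with high fat diet (high fat minus hepatectomy 0.78 ± 0.17 (SE), adjusted p 0.00824). For Apoa1 none of the 6 differences passed the threshold.

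The other genes of lipoprotein metabolism were 55 genes in 6 lists, of which 54 were tested. In the knockout 12 were raised and 19 lowered, where 21% and 19.4% of all genes were. After hepatectomy 7 were raised and 14 lowered (16.4% and 14.3% of all genes), with high fat diet 6 and 10 (12.9% and 11.1%), with cholic acid 4 and 8 (2.27% and 2.5%), and with TCPOBOP 0 and 0 (edgeR; 8 of the 54 had an unadjusted p under 0.05). Without chow 3, cholic acid gave 7 raised and 11 lowered, where 10.4% of all genes were called, and without the library labelled corn oil 1, TCPOBOP gave 10 raised and 3 lowered, where 9.35% were. These 2 counts were chosen after seeing the data.

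Of 8 other apolipoproteins tested, 5 were lowered in the knockout and 5 with cholic acid, and none was raised in either, where 19.4% and 2.5% of all genes were lowered. Apod was not tested. The medians were -0.40 and -0.94, against -0.01 and 0.01 for all genes. Saa4, a serum amyloid A protein carried on HDL, fell from 263 ± 39.4 to 108 ± 19.7 CPM in the knockout, given as mean and SD of 3 libraries (log2 fold change -1.29 ± 0.16 (SE), adjusted p 0.000388) and from 384 ± 49.0 to 161 ± 14.9 CPM with cholic acid (log2 fold change -1.25 ± 0.17 (SE), adjusted p 0.00935). Apon fell with cholic acid from 418 ± 86.8 to 148 ± 26.3 CPM (log2 fold change -1.50 ± 0.21 (SE), adjusted p 0.0103). With high fat diet 1 of the 8 was lowered: Apom, a lipocalin of HDL that carries sphingosine-1-phosphate, fell from 250.3 ± 8.06 to 117 ± 2.40 CPM, given as mean and SD of 2 libraries (log2 fold change -1.10 ± 0.08 (SE), adjusted p 0.00202). After hepatectomy 1 of the 8 was raised and 2 lowered (16.4% and 14.3% of all genes). With high fat diet 11.1% of all genes were lowered.

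Of 9 genes of assembly and secretion, 2 were raised and 1 lowered in the knockout (21% and 19.4% of all genes). After hepatectomy 2 and 3 were (16.4% and 14.3% of all genes), and with high fat diet 0 and 1 (12.9% and 11.1%). Cholic acid gave 2 and 1 (2.27% and 2.5%). With cholic acid Tm6sf2, which is needed to load VLDL with lipid, rose from 23.7 ± 5.65 to 65.1 ± 8.70 CPM (log2 fold change 1.46 ± 0.22 (SE), adjusted p 0.0112), and Soat2, which esterifies cholesterol, rose from 23.9 ± 7.64 to 54.2 ± 5.47 CPM (log2 fold change 1.18 ± 0.24 (SE), adjusted p 0.0302). The call of Soat2 was lost when any library other than chow 3 was left out (adjusted p 0.0946, 0.102, 0.0754, 0.0673 and 0.115 without cholic acid 1, 2 and 3 and chow 1 and 2). After hepatectomy P4hb, the disulfide isomerase that is the partner subunit of Mttp, rose from 1019 ± 30.0 to 1342 ± 54.6 CPM (log2 fold change 0.40 ± 0.08 (SE), adjusted p 0.00691). Mttp itself had a value of -0.12 there.

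Of 9 genes of plasma lipolysis and HDL remodelling, 3 were raised and 4 lowered in the knockout (21% and 19.4% of all genes). After hepatectomy 1 and 5 were (16.4% and 14.3% of all genes), and with high fat diet 3 and 3 (12.9% and 11.1%). Cholic acid gave 1 and 1 (2.27% and 2.5%). Lpl, lipoprotein lipase, rose in the knockout from 23.5 ± 1.59 to 94.6 ± 14.2 CPM (log2 fold change 2.01 ± 0.13 (SE), adjusted p 1.05e-05). Angptl4, an inhibitor of that lipase, fell in the knockout (log2 fold change -1.23 ± 0.25 (SE), adjusted p 0.00501) and after hepatectomy (log2 fold change -1.54 ± 0.27 (SE), adjusted p 0.00415). With cholic acid Angptl8, which also takes part in inhibiting that lipase, rose from 13.6 ± 5.70 to 54.8 ± 9.26 CPM (log2 fold change 2.01 ± 0.31 (SE), adjusted p 0.0121), and the call was lost without cholic acid 3 (adjusted p 0.0526). Lipg, endothelial lipase, which is of the same family as Lipc, fell after hepatectomy (log2 fold change -1.38 ± 0.28 (SE), adjusted p 0.00773). With cholic acid Lipg fell from 22.4 ± 12.1 to 4.84 ± 1.85 CPM (log2 fold change -2.21 ± 0.44 (SE), adjusted p 0.0295), a call lost without cholic acid 1, 2 or 3 or chow 2 (adjusted p 0.0546, 0.102, 0.118 and 0.0837). In high fat hepatocytes Pltp, a phospholipid transfer protein, rose from 5.17 ± 0.176 to 10.3 ± 0.912 CPM (log2 fold change 1.00 ± 0.13 (SE), adjusted p 0.00796). Gpihbp1, an endothelial anchor of lipoprotein lipase, rose from 1.72 ± 0.0154 to 5.76 ± 0.0478 CPM (log2 fold change 1.74 ± 0.15 (SE), adjusted p 0.00322), beside the endothelial markers that rose in the same libraries.

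Of 9 genes of lipoprotein uptake, 4 were raised and 2 lowered in the knockout (21% and 19.4% of all genes). After hepatectomy 2 and 0 were (16.4% and 14.3% of all genes), and with high fat diet 1 and 3 (12.9% and 11.1%). Cholic acid gave 1 and 0 (2.27% and 2.5%). Vldlr, the VLDL receptor, stood at 1.07, 1.65 and 1.69 CPM in wild type and 24.9, 27.7 and 33.5 CPM in the knockout, 19.6-fold higher (log2 fold change 4.29 ± 0.20 (SE), adjusted p 1.8e-06). With high fat diet Sort1, a sorting receptor that binds Apob, fell from 33.0 ± 2.84 to 8.94 ± 2.08 CPM (log2 fold change -1.88 ± 0.17 (SE), adjusted p 0.00372). After hepatectomy Lrp5, a receptor of the LDL receptor family, rose (log2 fold change 0.79 ± 0.09 (SE), adjusted p 0.000644). Bcam, a neighbour of the chromosome 7 cluster, rose there as well (log2 fold change 0.93 ± 0.13 (SE), adjusted p 0.0017).

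Of 10 transcriptional regulators and Apob editing genes, 1 was raised and 6 lowered in the knockout (21% and 19.4% of all genes). After hepatectomy 0 and 3 were (16.4% and 14.3% of all genes), and with high fat diet 1 and 1 (12.9% and 11.1%). None was called with cholic acid (2.27% and 2.5%), where edgeR gave an unadjusted p under 0.05 for 2 of the 10. Foxo1, a forkhead factor known to activate Mttp and Apoc3, fell in the knockout from 88.2 ± 6.03 to 34.1 ± 8.10 CPM (log2 fold change -1.37 ± 0.16 (SE), adjusted p 0.000248). Hnf4a, a nuclear receptor known to act on many apolipoprotein genes, was chosen after its values were seen: it was lowered in the knockout (log2 fold change -0.78 ± 0.13 (SE), adjusted p 0.00185) and with high fat diet (log2 fold change -0.68 ± 0.14 (SE), adjusted p 0.0233), and not called after hepatectomy (-0.18) or with cholic acid (0.21). Of the 9 neighbours of the clusters, 2 were raised and 1 lowered in the knockout, and 1 and 1 after hepatectomy. With high fat diet 1 and 1 were, and with cholic acid 0 and 1, against the same shares of all genes.

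The genes most like each member were found by Pearson's r of log2 CPM over the 26 libraries, each centred on the mean of its experiment's controls, among 11929 genes. The libraries share depth and treatment, so r is a description. Ces4a, Cops6 and Zfp410 were most like Apoa1 (r 0.900, 0.868 and 0.846), and Hgfac, Slc27a5 and Gcdh most like Apoa2 (0.954, 0.941 and 0.941). Apoa4 was matched by Pdlim2 (0.888), Apoa5 by Slc25a51 (0.893) with Angptl4 second (0.874), and Apoc3 by Hsbp1 (0.957). Apob was matched by Abcf2 (0.927), Mttp by Taf1d (0.843), Apoe by Abhd14b (0.923) and Lipc by Acadsb (0.901). Among the members themselves r was highest between Apoa2 and Apoc3 (0.886), which lie on different chromosomes, and between Apoa2 and Apoe (0.816). Between Apoa1 and Apoa4 it was -0.32.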

How the data were processed

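Poly(A) messenger RNA was sequenced with a strand-specific TruSeq kit, per the labels' protocols. The authors deposited 1 table of raw read counts per gene for all 26 libraries, and every column of values was used. Per the submitters' processing notes the tools were bcl2fastq 2.17.1.14, Trimmomatic, STAR 2.4.2a, Picard 1.119 and HTSeq with GRCm38/mm10; the annotation release and strand setting are not given in the sources used here. The 5 summary rows that name no gene were left out of library sizes, and 47224 of 47643 gene IDs were matched to a symbol.

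Each comparison was fitted on its own libraries with edgeR 4.0.16 (R 4.3.3) after filterByExpr (at least 10 counts, at least 15 in total) and TMM scaling, with glmQLFit and glmQLFTest and Benjamini-Hochberg adjustment over all genes tested at 0.05. The SE was taken as the absolute log2 fold change over the root of the F statistic. Differences between effects were interaction terms over the libraries of both experiments. Exon lengths and positions came from GENCODE M21 and upstream sequence from RefSeq, both on GRCm38. The procedure was tested on simulated data. Libraries held 13949059 to 70367874 counts.

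All 10 members are named. From the other lists, the 3 largest called rises and falls per comparison are named (average log2 CPM of at least 1), cluster neighbours and other apolipoproteins where the clusters are described, and the 3 genes most like a member. Some results that this rule names are not reported here. Members and lists were chosen with earlier results of these data known. Alternatives were DESeq2 1.42.0 (size factors, Wald test), no filter, one fit of all 26 libraries, scaling by library size alone, genes with 10 or more counts on average, a replicate block, and each library left out. The counts over the other lists without the library labelled corn oil 1 or floxed chow 3 were added after seeing the data.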

Additional observations from a re-analysis of the deposited data

Results flagged for a closer look

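The results here are the 19 gene and experiment pairs in which the effects of 2 treatments on a gene differed by the interaction test (edgeR's quasi-likelihood test, adjusted over all genes). Of all genes 13.9% were called for knockout minus cholic acid, 16.1% for knockout minus high fat diet and 31.5% for knockout minus hepatectomy. Of the 10 genes 2, 1 and 5 were. For hepatectomy minus cholic acid 13% were called, for high fat diet minus cholic acid 6.43% and for high fat diet minus hepatectomy 29.2%. Of the 10 genes 1, 3 and 7 were. Values are differences of log2 fold changes, and the experiments of a pair differ in strain, age, feeding or tissue as well.

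For knockout minus cholic acid, Apoa2 gave 1.09 ± 0.26 (SE), adjusted p 0.0143, and Apoc3 gave 1.50 ± 0.24 (SE), adjusted p 0.0014. For knockout minus high fat diet, Apoa4 gave -2.47 ± 0.41 (SE), adjusted p 0.00267. For knockout minus hepatectomy, Apoa2 gave 0.97 ± 0.17 (SE), adjusted p 0.000982, Apob -0.65 ± 0.15 (SE), adjusted p 0.0055, Apoc3 0.67 ± 0.17 (SE), adjusted p 0.00923 and Apoe 0.61 ± 0.16 (SE), adjusted p 0.0119. The row of Apoc2, which does not measure its transcript, gave -1.79 ± 0.52 (SE), adjusted p 0.0193 and was not called without knockout 1 (adjusted p 0.0516) or wild type 1 (0.058).

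For hepatectomy minus cholic acid, Apoc3 gave 0.84 ± 0.22 (SE), adjusted p 0.0236. For high fat diet minus cholic acid, Apoa4 gave 3.77 ± 0.60 (SE), adjusted p 0.00932 and Apoc3 1.47 ± 0.25 (SE), adjusted p 0.0123. Apoa2 gave 1.10 ± 0.27 (SE), adjusted p 0.0428, a call lost without high fat 1, high fat 2, chow hepatocytes 1, chow hepatocytes 2, cholic acid 1, cholic acid 3 or floxed chow 2 (adjusted p 0.155, 0.147, 0.17, 0.16, 0.0778, 0.0709 and 0.0786).

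For high fat diet minus hepatectomy, Apoa2 gave 0.97 ± 0.14 (SE), adjusted p 0.000869, Apoa4 2.61 ± 0.27 (SE), adjusted p 0.000158, Apoe 1.12 ± 0.12 (SE), adjusted p 0.00016 and Lipc 0.78 ± 0.17 (SE), adjusted p 0.00824. Apoa5 gave 0.88 ± 0.22 (SE), adjusted p 0.0127 and Apoc3 0.63 ± 0.15 (SE), adjusted p 0.0118, both lost without chow hepatocytes 1 (adjusted p 0.0595 and 0.0563). Mttp gave -0.39 ± 0.11 (SE), adjusted p 0.025, lost without high fat 1, high fat 2, chow hepatocytes 1, chow hepatocytes 2 or sham 3 (adjusted p 0.092, 0.0716, 0.0704, 0.0725 and 0.0604).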

How the results depend on the processing

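All values are log2 unless they count members called of 10, and where no cause is given the cause was not tested. DESeq2 size factors and a mean count of at least 10 changed no member's call in any of the 5 comparisons. One fit of all 26 libraries called 3 members after hepatectomy (7 in its own fit), 2 with high fat diet (5), 4 with cholic acid (2), 2 for knockout minus hepatectomy (5, without Apob, Apoc2 and Apoe) and 3 for high fat diet minus hepatectomy (7, without Apoa5, Apoc3, Mttp and Lipc). Over all genes that fit called 3391 after hepatectomy (4225 in its own fit), 3546 for knockout minus hepatectomy (4645) and 2666 for high fat diet minus hepatectomy (4248). DESeq2's Wald test called 4 with cholic acid, 3 for knockout minus high fat diet (1) and 6 for high fat diet minus cholic acid (3). For these 2 differences it called 2786 and 1942 of all genes, against 2297 and 858. No filter called 2 for knockout minus high fat diet, and 2484 of all genes. Over all genes cholic acid gave 600 calls, against 1445 by DESeq2, 3132 in the fit of all 26 libraries and 955 with no filter; high fat diet gave 3333, against 1735 in the fit of all 26, of which 68.4% were raised. Library size alone reversed Apoe and Mttp in the knockout (0.0993 and 0.0164), Mttp after hepatectomy (0.0617) and Apob for hepatectomy minus cholic acid (0.000932), none called, and moved 28 of 100 group levels by more than 1 SD. For knockout minus high fat diet, Apoa2 reversed with DESeq2 size factors (-0.00241), DESeq2's Wald test (-0.00241) and all 26 libraries (-0.0484), and Apoc3 with all 26 (-0.00468).

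Leaving out 1 library at a time gave 0 to 1 members called with TCPOBOP, 1 to 7 in the knockout, 4 to 7 after hepatectomy, 2 to 3 with high fat diet and 0 to 4 with cholic acid. For the differences it gave 2 to 3 (knockout minus cholic acid), 1 to 3 (knockout minus high fat diet), 4 to 6 (knockout minus hepatectomy), 0 to 1 (hepatectomy minus cholic acid), 0 to 6 (high fat diet minus cholic acid) and 4 to 7 (high fat diet minus hepatectomy). Values that crossed 0 when 1 library was left out, none of them called in its comparison, ran from -0.18 to 0.33 for Apob with cholic acid, -0.00149 to 0.12 for Apob with hepatectomy, -0.00942 to 0.31 for Apoa5 with high fat diet, -0.28 to 0.0307 for Apoc3 with TCPOBOP, -0.72 to 0.52 for Apoe with TCPOBOP, -0.25 to 0.0449 for Lipc with TCPOBOP and -0.18 to 0.53 for Mttp with TCPOBOP. For knockout minus cholic acid it ran from -1.16 to 0.52 for Apoc2. For knockout minus high fat diet it ran from -0.0824 to 0.0843 for Apoa2 and from -0.0701 to 0.14 for Apoc3. For knockout minus hepatectomy it ran from -0.0979 to 0.47 for Apoa4, from -0.59 to 0.13 for Apoa5 and from -0.24 to 0.0241 for Mttp. For hepatectomy minus cholic acid it ran from -0.0152 to 0.26 for Apoa2, from -0.28 to 0.23 for Apob and from -0.14 to 0.10 for Lipc. For high fat diet minus cholic acid it ran from -0.14 to 0.20 for Apoa1 and from -0.25 to 1.35 for Apoc2. Over all genes, leaving out 1 library gave 3969 to 6024 calls in the knockout, 2554 to 4217 after hepatectomy and 189 to 1345 with cholic acid. It gave 1325 to 2350 for knockout minus cholic acid and 3914 to 4619 for knockout minus hepatectomy. For hepatectomy minus cholic acid it gave 1089 to 2495. The 6 members for high fat diet minus cholic acid came without floxed chow 3, where 1958 genes were called. Each fit without a hepatocyte library called fewer of all genes than its main fit.

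The main fits did not use the replicate numbers as pairs. The correlation of deviations between same-numbered libraries was -0.20 to -0.01 in the knockout, -0.08 to 0.10 after hepatectomy and 0.10 to 0.16 with cholic acid. It was 0.12 for TCPOBOP and 0.13 for high fat diet. Every library correlated best with its own number with cholic acid, TCPOBOP and high fat diet, and not in the knockout or after hepatectomy. With 2 libraries per group, as for TCPOBOP and high fat diet, any positive correlation gives this result. Whether the numbers mark pairs was therefore not settled. With the replicate block 0 members were called with TCPOBOP, 4 in the knockout, 6 after hepatectomy, 4 with high fat diet and 2 with cholic acid. Over all genes it called 0, 4763, 3664, 3693 and 480 there, against 0, 5441, 4225, 3333 and 600 without it. For the differences, in the order above, it called 3, 2, 4, 1, 2 and 6 members. Over all genes these were 1536, 1858, 4108, 1497, 446 and 3762 calls, against 1939, 2297, 4645, 1820, 858 and 4248 without it. The block lost Apoc2 in the knockout (adjusted p 0.0623), Apoa1 after hepatectomy (0.0791) and Apoe with high fat diet (0.129). It also lost Apoc3 for hepatectomy minus cholic acid (0.0544), Soat2 (0.0513) and Lipg (0.062) with cholic acid. For knockout minus hepatectomy, high fat diet minus cholic acid and high fat diet minus hepatectomy it lost 1 member call each, not named here. It added 1 each for knockout minus cholic acid, knockout minus high fat diet and hepatectomy minus cholic acid.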
